A study of Mus musculus with 9 samples.

Results

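The genes of 6 granulocyte transcription factors were followed: Cebpa, Cebpb, Cebpd, Cebpe and Cebpg, which encode C/EBP proteins, and Gfi1. They were taken by symbol from the 43629 Ensembl genes of the deposited table, and all 6 were found, each under 1 identifier, and all 6 passed the filter on low values. The study measured RNA from c-KIT+ bone marrow cells, which carry the receptor for stem cell factor, a marker of stem cells and progenitors, with 3 libraries in each of 3 groups of mice labelled C57BL/6. The first group was wild type (WT). Mice of the second had Mx1-Cre and 1 Cbfb+/56M allele (KI), a knock-in of the CBFB-MYH11 fusion of human acute myeloid leukaemia that is switched on by Cre. The third carried Chd7f/f, Mx1-Cre and Cbfb+/56M (KI_Chd7del), so that the chromatin remodeller gene Chd7 could be deleted in the same cells. Mice of all 3 groups had been treated with pIpC, an inducer of interferon, which turns on the Mx1 promoter of the Cre in KI and KI_Chd7del. That promoter acts in many tissues, and the label of WT names no Cre. The labels give no age, and no label says whether each library had its own mouse, so the p-values measure the spread between these libraries.

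C/EBP proteins are basic leucine zipper factors that bind DNA as dimers, with each other or with related factors. In the marrow, C/EBPα (Cebpa) is needed to form granulocyte and monocyte progenitors, C/EBPε (Cebpe) for the later steps at which neutrophils and eosinophils make their granule proteins, and C/EBPβ (Cebpb) for granulocyte production under infection or cytokine stress. GFI1, a zinc finger repressor, holds down monocyte and stem cell genes in granulocyte progenitors. The question of the series, in its title, is what the loss of Chd7 does to leukaemia driven by the fusion.

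Values are given as normalised read counts, which from their pattern are read numbers divided by 1 factor per library and rounded. Their sum ran from 37538447 to 46159426 per library, so the low values of Cebpb are limited by counting more than those of the other genes. Chd7 itself read 3471 to 3982 for WT, 1979 to 2934 for KI and 1794 to 1921 for KI_Chd7del. The part of Chd7 that is floxed is not given in the labels, and counts over the whole gene need not show its loss. Myh11, whose human counterpart forms the tail of the fusion, read 5 to 9, 176 to 219 and 164 to 187, and Kit, which encodes c-KIT, read 7354 to 7797, 3226 to 3868 and 6131 to 8508. WT library 1, KI library 2 and KI_Chd7del library 1 stood apart from their group mates: their squared differences from them were 7.29 to 7.42, 9.49 to 11.1 and 12.2 to 12.6 times counting noise, against 3.57, 4.27 and 4.69 between the other libraries of each group.

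Cebpe, Cebpd and Gfi1 fell steeply in KI, Cebpa fell slightly, Cebpg rose slightly and Cebpb did not pass the test. With Chd7 floxed on the same background, Cebpe, Cebpd and Gfi1 were higher than in KI and still read below each WT library. In limma (log2 of the value + 1, p-values adjusted by Benjamini-Hochberg over 15997 genes), 4 of the 6 genes were lower and 1 higher in KI against WT. Of all genes tested, 27.2% were called lower and 31.8% higher, 58.9% in either direction. In KI_Chd7del against KI, 3 were higher and 0 lower, where 17.5% of all genes were called higher and 22.9% lower, 40.4% in either direction. The count of 0 lower stood also at an unadjusted p of 0.05 and with limma-voom. In KI_Chd7del against WT, 3 were lower and 1 higher, where 24.3% and 24% of all genes were called, 48.4% in either direction. Groups were free of overlap for 5, 3 and 5 of the 6 genes in the 3 comparisons, against 67.6%, 52% and 57.6% of all genes tested. Calls were common throughout the data set, so these counts alone do not set the 6 genes apart.

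**Figure D1:**
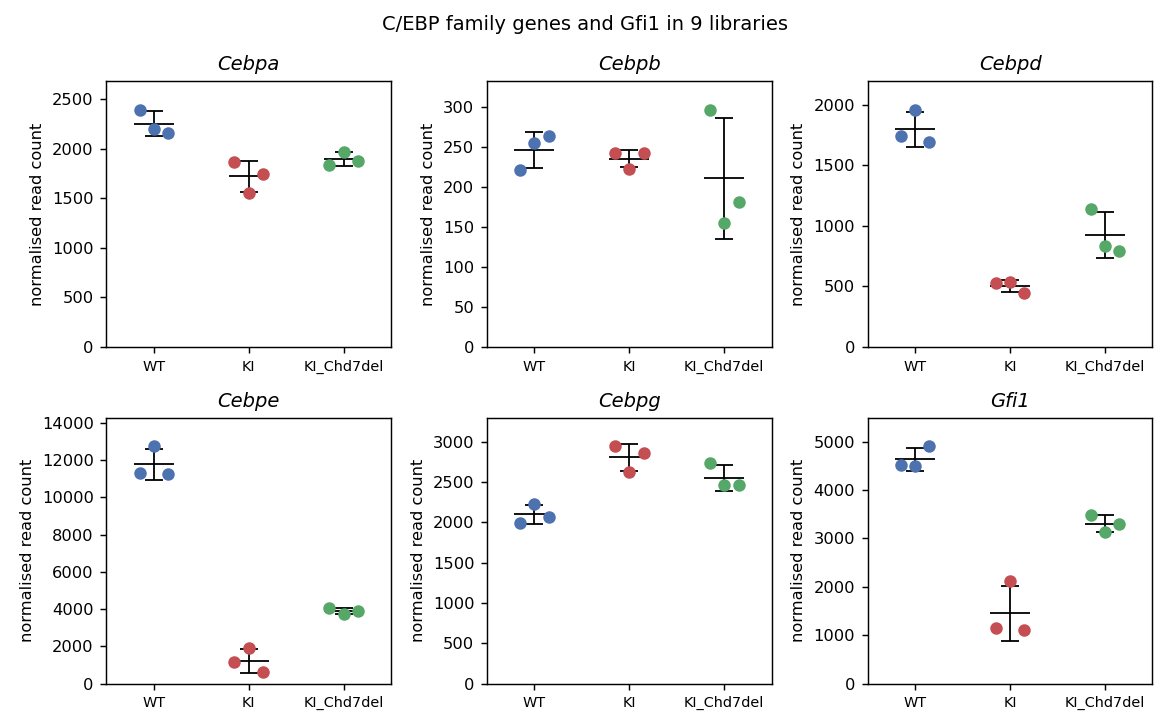
Normalised read count (vertical axes, each starting at 0) of the 6 genes in the 3 groups, with 1 point per library, a wide bar for the mean and whiskers for 1 SD (n = 3). Cebpe, Cebpd and Gfi1 are lowest in KI and in between in KI_Chd7del, Cebpg is lowest in WT, and the groups of Cebpb overlap, with 297 in KI_Chd7del library 1 above its other libraries.

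Cebpa is the founding factor of the granulocyte and monocyte line. The gene (ENSMUSG00000034957; chromosome 7, 35119293 to 35121928, plus strand, GRCm38) had normalised read counts of 2398, 2205 and 2160 for WT, 1872, 1556 and 1742 for KI and 1834, 1974 and 1882 for KI_Chd7del. Each WT library thus lay above the 6 others, while KI and KI_Chd7del overlapped. Cebpa fell by 0.39 in KI on the log2 scale (SE 0.07, adjusted p = 0.00165), to 76.5% of the WT mean. In KI_Chd7del it was at 84.1% of WT (log2 -0.25, SE 0.07, adjusted p = 0.0222), and its difference from KI was 0.14 with a 95% confidence interval of -0.03 to 0.31 (adjusted p = 0.160). Both calls of Cebpa against WT depend on the scaling, and the second also on single libraries. Scaled to the column total, the differences were -0.16 (adjusted p = 0.126) in KI and 0.00 (adjusted p = 0.989) in KI_Chd7del, but with this scaling the median of all genes, 0.02 in both comparisons, became 0.25 and 0.26. Without WT library 1 the difference in KI_Chd7del was -0.20 (adjusted p = 0.0742), and without KI_Chd7del library 1 or 3 it did not pass either (-0.22 and -0.24, adjusted p = 0.0572 and 0.0573). Relative to the median of all genes, Cebpa in KI lay at -0.41 with either scaling, and Cebpa in KI_Chd7del at -0.27 and -0.26.

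Cebpe drives the last steps of granulocyte maturation and showed the widest range of the 6 genes. It is found on chromosome 14, 54710360 to 54712174 (ENSMUSG00000052435, minus strand), and read 11324, 12743 and 11230 in WT. The KI libraries had 1147, 1906 and 611, and the KI_Chd7del libraries 4042, 3740 and 3918. All 3 groups were apart, and the KI libraries differed among themselves by more than 3 times, while those of KI_Chd7del lay close together. Cebpe fell by 3.41 in KI (SE 0.32, adjusted p = 2.05e-05), a 10.7-fold difference on the log2(value + 1) scale. It was 3.54-fold higher in KI_Chd7del than in KI (log2 1.82, SE 0.32, adjusted p = 0.00246) and lay below WT (log2 -1.59, SE 0.32, adjusted p = 0.00315). All 21 alternative settings kept these 3 calls, with ranges of -3.81 to -2.99, 1.40 to 2.22 and -1.62 to -1.34, and the ends of the first 2 ranges came from leaving out KI library 2 or 3. Without KI library 3, the lowest, the difference of KI from WT was -2.99.

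Gfi1, the repressor that works beside C/EBPε in granulocyte progenitors, is on chromosome 5, 107716657 to 107726036 (ENSMUSG00000029275, minus strand). Its normalised read counts were 4507, 4488 and 4905 for WT, 1152, 2111 and 1099 for KI and 3484, 3129 and 3301 for KI_Chd7del. No 2 groups overlapped, and KI library 2 lay above its group mates. Gfi1 fell by 1.74 in KI (SE 0.21, adjusted p = 9.31e-05), a 3.33-fold difference, and rose in KI_Chd7del against KI by 1.25 (SE 0.21, adjusted p = 0.00193), 2.38-fold. Without KI library 2 these differences were -2.04 and 1.55, and without KI_Chd7del library 1 the second was 1.21. The remaining gap of KI_Chd7del to WT, -0.49, did not pass (SE 0.21, adjusted p = 0.0815), although each of its libraries was below each of WT. This last value rests on the spread that KI lends to the shared fit. With only KI_Chd7del and WT in the fit, the same -0.49 had an adjusted p of 0.000731, and without KI library 2 it had 0.000283.

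Cebpd encodes C/EBPδ, a factor induced by G-CSF and inflammatory signals that also acts in granulocyte genes. The gene (ENSMUSG00000071637; chromosome 16, 15887286 to 15891031, plus strand) read 1743, 1961 and 1689 for WT, 526, 539 and 446 for KI and 1141, 835 and 794 for KI_Chd7del. The 3 groups were apart, with KI lowest and KI_Chd7del library 1 above its group mates. Cebpd fell by 1.84 in KI (SE 0.14, adjusted p = 6.15e-06), to 28.0% of the WT mean, and was higher in KI_Chd7del than in KI by 0.86 (SE 0.14, adjusted p = 0.00166). At 51.4% of WT it remained lower there (log2 -0.98, SE 0.14, adjusted p = 0.000485), and none of the 21 alternative settings ended any of these calls. Without KI_Chd7del library 1 the rise against KI was 0.70.

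Cebpb, the factor of emergency granulopoiesis, had the lowest level per kb of the 6 genes in WT and KI_Chd7del. On chromosome 2, 167688915 to 167690418 (ENSMUSG00000056501, plus strand), it read 221, 255 and 264 for WT, 242, 223 and 242 for KI and 297, 155 and 181 for KI_Chd7del. The groups overlapped in each comparison. Its differences were -0.06 in KI against WT (95% confidence interval -0.55 to 0.42, adjusted p = 0.818), -0.21 in KI_Chd7del against KI (-0.70 to 0.27, adjusted p = 0.450) and -0.28 between KI_Chd7del and WT (-0.76 to 0.21, adjusted p = 0.315), so changes of up to about those bounds could have gone unseen. KI_Chd7del library 1, at 297, lay above both its group mates. Without it, Cebpb was lower in KI_Chd7del than in KI (log2 -0.49, adjusted p = 0.0191) and than in WT (log2 -0.55, adjusted p = 0.00897).

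Cebpg encodes C/EBPγ, a short family member without the usual activation domain that pairs with other C/EBP proteins and with ATF4. It was the only one of the 6 genes that rose in KI. The gene (ENSMUSG00000056216; chromosome 7, 35046422 to 35056573, minus strand) read 1999, 2233 and 2072 for WT, 2946, 2626 and 2858 for KI and 2740, 2467 and 2460 for KI_Chd7del. Each WT library lay below the 6 others, and KI and KI_Chd7del overlapped. Cebpg rose in KI by 0.42 (SE 0.07, adjusted p = 0.000621) and stood above WT in KI_Chd7del too, by 0.28 (SE 0.07, adjusted p = 0.00808). It did not pass between KI_Chd7del and KI (-0.14, 95% confidence interval -0.29 to 0.02, adjusted p = 0.139).

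**Figure D2:**
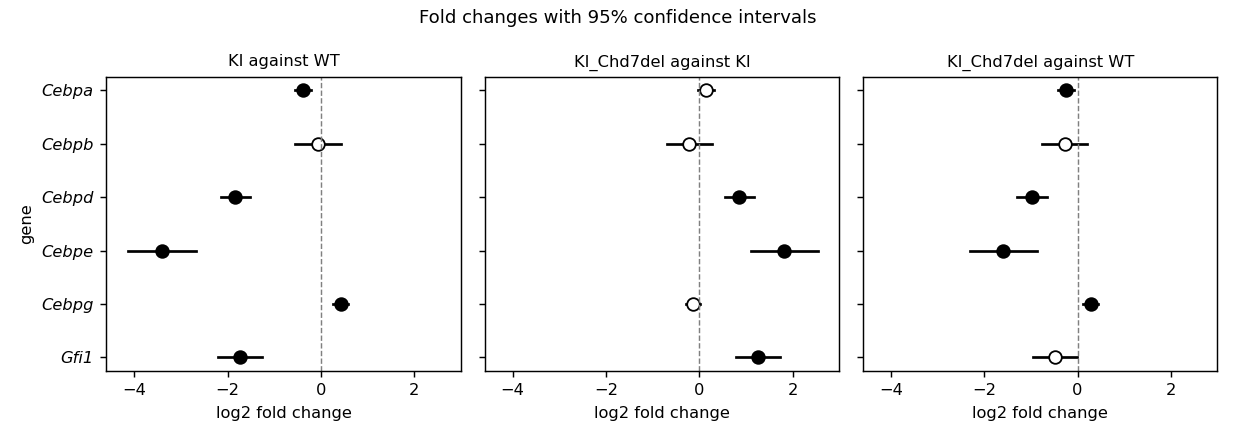
Log2 fold changes of the 6 genes (horizontal axes) in the 3 comparisons, with lines for the 95% confidence interval of limma. Filled points passed an adjusted p of 0.05 and open points did not; Cebpe has the widest fall in KI (-3.41), and Cebpb crosses 0 in each panel.

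Cebpa and Cebpg are neighbours, with 62720 bases between the 5′ end of Cebpg and that of Cebpa, and are read in opposite directions away from each other. Their upstream sequences, and that of Gfi1, are given because Cebpa and Cebpg moved in opposite directions in KI and Gfi1 moved with Cebpe. The sequences are from RefSeq (GRCm38.p6), lie within the 250 bases before the transcript, and are cut where GENCODE calls bases exon. The Gfi1 window lies inside the GENCODE gene, whose start is further upstream. For 4 of the 6 genes a promoter entry was found, and those of Cebpd and Cebpe are named only. Capitals mark a C/EBP-type motif, searched on both strands as TTGCNNAA or TTGCGNNA, which overlap where both fit.
Cebpa, chr7:35119043-35119292, plus strand: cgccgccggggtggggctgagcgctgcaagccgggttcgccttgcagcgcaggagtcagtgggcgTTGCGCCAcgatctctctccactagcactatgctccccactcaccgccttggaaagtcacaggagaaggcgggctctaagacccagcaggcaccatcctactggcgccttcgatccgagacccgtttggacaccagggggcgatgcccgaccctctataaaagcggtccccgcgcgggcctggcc
Cebpg, chr7:35056574-35056816, minus strand: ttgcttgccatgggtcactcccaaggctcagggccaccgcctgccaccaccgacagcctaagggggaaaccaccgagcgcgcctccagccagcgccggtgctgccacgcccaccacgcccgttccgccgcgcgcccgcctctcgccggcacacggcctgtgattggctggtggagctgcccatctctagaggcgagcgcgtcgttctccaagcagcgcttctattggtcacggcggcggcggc
Gfi1, chr5:107725806-107725954, minus strand: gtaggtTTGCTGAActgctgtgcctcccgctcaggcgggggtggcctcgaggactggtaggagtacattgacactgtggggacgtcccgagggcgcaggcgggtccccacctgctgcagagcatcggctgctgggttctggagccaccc
The Cebpa window held TTGCGCCA from position -185, counted from the first transcribed base, and the Gfi1 window shown held TTGCTGAA from -143. Gfi1 has a second RefSeq entry, chr5:107724344-107724593 on the minus strand, also inside the gene, which held none of the motifs and is not printed. No C/EBP-type motif was in the Cebpg window. TTGCGNNA occurred in 2.94% and TTGCNNAA in 9.56% of the 32851 RefSeq promoters over their 250 upstream bases. The Cebpg and Gfi1 windows shown are shorter, at 243 and 149 bases. Neither the RUNX motif TGTGGT (14% of promoters) nor the GFI1 core AAATCA (12.4%) was found in the 3 windows shown. A match describes letters only, and none of these motifs was tested against the expression values.

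Since the values of Cebpa and Cebpg come from the same library, their ratio is nearly free of the scaling. The log2 ratio of Cebpg to Cebpa was -0.26, 0.02 and -0.06 for WT, 0.65, 0.75 and 0.71 for KI and 0.58, 0.32 and 0.39 for KI_Chd7del. No 2 groups overlapped, and KI was higher than WT by 0.81 (exact permutation test over libraries, 2-sided, p = 0.10, which is the smallest that 3 against 3 can give). This ratio was chosen after the values were seen. The ratio of Cebpb to Cebpa, which marks emergency against steady granulopoiesis, was higher in KI than in WT by 0.33 on the log2 scale, with -2.95, -2.80 and -2.84 against -3.43, -3.11 and -3.03 and no overlap (exact permutation p = 0.10, adjusted over 3 comparisons 0.30). Without WT library 1 this difference was 0.21. In KI_Chd7del it spread over -2.62, -3.66 and -3.37, and was not told apart from either group (exact permutation p = 0.40 and 1).

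Cebpe lost more than Gfi1. The log2 ratio of Cebpe to Gfi1 was 1.33, 1.51 and 1.20 for WT, -0.01, -0.15 and -0.85 for KI and 0.21, 0.26 and 0.25 for KI_Chd7del. The ratio was lower in KI than in WT (log2 difference -1.68) and in KI_Chd7del than in WT (-1.10), and higher in KI_Chd7del than in KI by 0.57. Without KI library 3 this last difference was 0.32. The groups did not overlap in any of the 3, and each had an exact permutation p of 0.10, the smallest possible, also after adjustment.

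Levels of different genes were compared per kb of annotated exon. In WT the order was Cebpe at 9481 ± 683 (SD, n = 3), Gfi1 at 1454 ± 73.9, Cebpa at 855 ± 48.0, Cebpd at 480 ± 38.4, Cebpg at 374 ± 21.3 and Cebpb at 164 ± 15.1 normalised reads per kb. Each step of this order exceeded the sum of the neighbours' SDs. Among 15889 tested genes with a length, WT Cebpe stood at percentile 98.7 and Cebpb at 50.2. In KI the order changed. Cebpe (984 ± 524) and Cebpa (654 ± 60.3) did not differ beyond their SDs, nor did Cebpg (499.9 ± 29.4) and Gfi1 (456 ± 179), and Cebpb (157 ± 7.29) and Cebpd (134 ± 13.4) were at the bottom. KI_Chd7del had Cebpe at 3143 ± 122 and Gfi1 at 1037 ± 55.7 back in the first places, Cebpa at 720 ± 27.0, Cebpg at 455 ± 28.4, Cebpd at 246 ± 50.6 and Cebpb at 140 ± 50.3.

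Cebpe thus made up most of the summed level of these 5 C/EBP genes in WT. Of the per-kb sum over the 5 C/EBP genes, it took 82.9% to 84.2% for WT, 25.4% to 53.2% for KI and 65.9% to 68.0% for KI_Chd7del. Cebpa took 6.86% to 8.27%, 20.5% to 34.0% and 14.1% to 16.5%, and Cebpg 3.23% to 3.39%, 16.2% to 26.2% and 9.43% to 9.86%. None of these ranges overlapped between groups, and the share of Cebpg was highest in KI library 3, where Cebpe was lowest. The summed level of the 5 genes was 11350 ± 732 per kb for WT, 2429 ± 473 for KI and 4704 ± 214 for KI_Chd7del. Without Cebpe the sums were 1873 ± 56.3, 1445 ± 93.1 and 1561 ± 109, so most of the difference in the sum lay in this 1 gene.

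**Figure D3:**
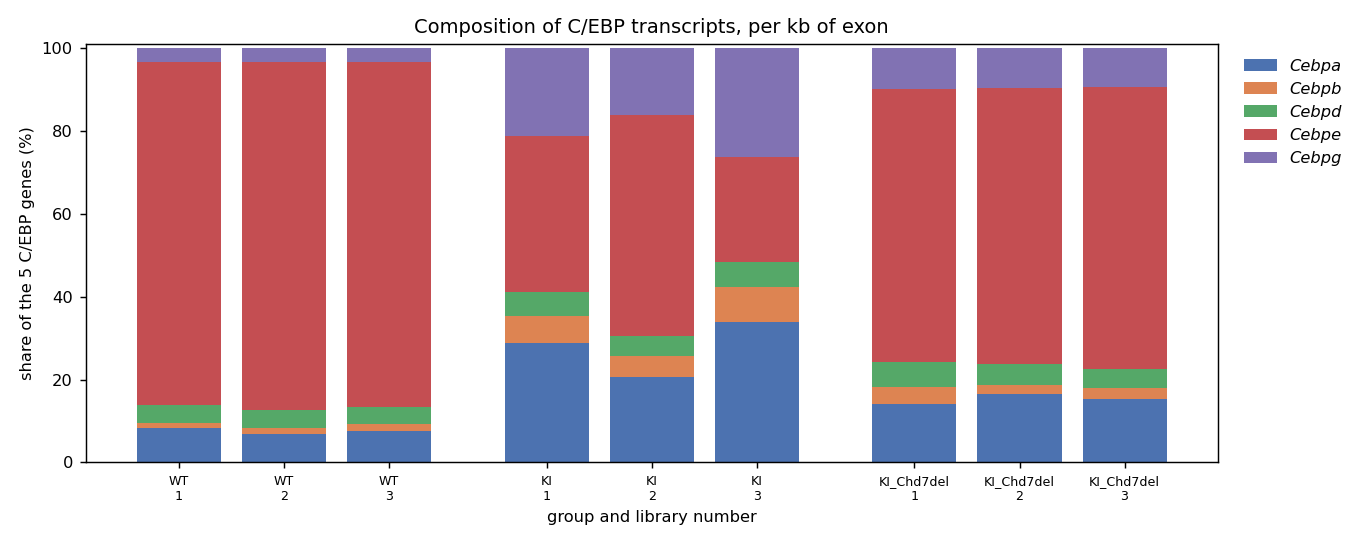
Share of each C/EBP gene in the per-kb sum of the 5 (vertical axis, percent), with 1 stacked bar per library. Cebpe fills 82.9% to 84.2% of the WT bars, 25.4% to 53.2% of the KI bars and 65.9% to 68.0% of the KI_Chd7del bars.

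Between the groups, markers of late neutrophils moved with Cebpe, Cebpd and Gfi1. The 8 markers together took 4.80% to 5.46% of the library for WT, 0.159% to 0.718% for KI and 1.29% to 1.86% for KI_Chd7del. None was at 0 in any library, 7 of 8 were lower in KI and 7 of 8 higher in KI_Chd7del against KI. Within KI, libraries 1, 2 and 3 had 0.349%, 0.718% and 0.159%, the same order as Cebpe (1147, 1906 and 611) and Gfi1 (1152, 2111 and 1099), whereas Cebpa was lowest in library 2. Within KI_Chd7del, 1.86%, 1.29% and 1.47% in libraries 1, 2 and 3 again had the order of Cebpe (4042, 3740 and 3918) and Gfi1 (3484, 3129 and 3301). Within WT, at 4.80%, 5.44% and 5.46%, Cebpe did not follow the markers: library 3 had the highest share and the lowest Cebpe (11230). Gfi1 was highest in WT library 3 (4905), as the markers were, and close in libraries 1 and 2 (4507 and 4488). Cebpd had the order of the markers within KI (526, 539 and 446). It did not within KI_Chd7del (1141, 835 and 794) or WT (1743, 1961 and 1689). The 7 eosinophil markers, cells that also use C/EBPε, took 0.0529% to 0.105% for WT, 0.0170% to 0.0271% for KI and 0.0353%, 0.142% and 0.141% for KI_Chd7del libraries 1 to 3. Cebpe did not follow that last difference, at 4042 in library 1. Monocyte and macrophage markers went the other way, with 0.139% to 0.147%, 0.794% to 0.868% and 0.358% to 0.401%, and 8 of the 9 were higher in KI and 8 lower in KI_Chd7del against KI. Of the eosinophil markers 4 were lower in KI, and 4 higher and 1 lower in KI_Chd7del against KI. Ear6, among those 4 in both comparisons, read 1, 0 and 0 in KI, so its changes rest on values near 0. Mast cell and basophil markers took 0.0570% to 0.0594%, 0.206% to 0.313% and 0.129% to 0.170%, with 6 of 9 higher and 3 lower in KI, then 3 higher and 5 lower, and Mcpt1 at 0 in a library. Of 8 erythroid markers, 3 were higher and 3 lower in KI, then 1 higher and 6 lower. Of 6 B cell markers, 1 was higher in KI and 5 in KI_Chd7del against KI (1 without KI library 1). Of 7 stem and progenitor markers, 5 were higher and 1 lower in KI, then 5 higher and 2 lower. These counts, and those of the lists below, stand beside 31.8% of all genes tested called higher and 27.2% lower in KI. In KI_Chd7del against KI the shares of all genes were 17.5% higher and 22.9% lower. In RNA of mixed cells, fewer cells of a type and less RNA per cell cannot be told apart, and the part of these shares in the changes of the 6 genes was not tested.

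**Figure D4:**
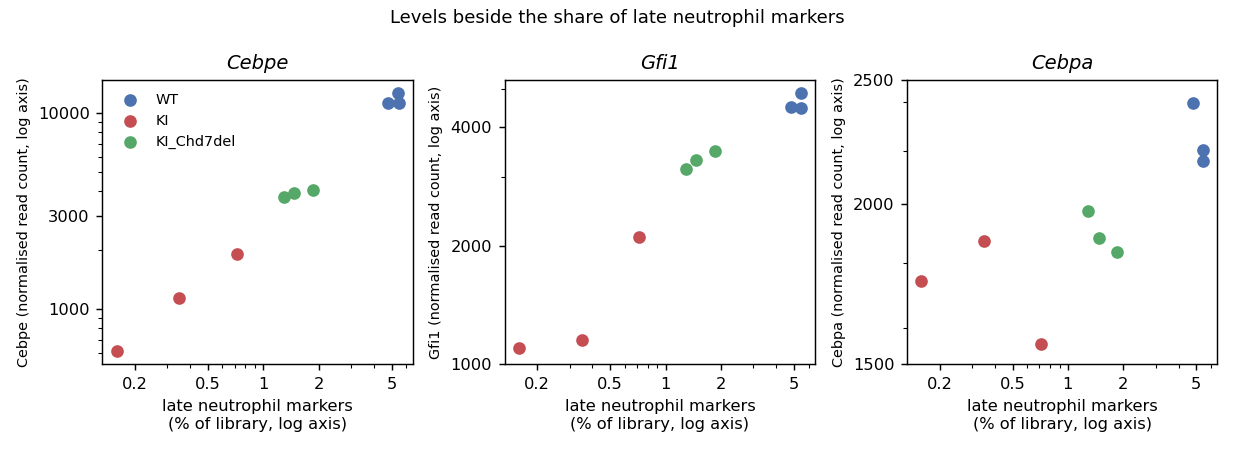
Normalised read count of Cebpe, Gfi1 and Cebpa (vertical log axes) against the share of the library taken by 8 late neutrophil markers (horizontal log axes, percent), 1 point per library. Cebpe and Gfi1 order the KI libraries as the markers do, while Cebpa is lowest in the KI library with the highest share, 0.718%.

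Transcripts of proteins that bind C/EBP proteins or lead to their degradation were also counted. Of 11 such genes, 7 were higher and 3 lower in KI against WT, with a median log2 fold change of 0.61 against 0.02 over all genes tested. The rises were led by stress and dendritic cell factors that form dimers with other zipper proteins. Atf3 read 21, 26 and 56 for WT and 731, 647 and 930 for KI (log2 4.56, SE 0.33, adjusted p = 4.73e-06), and Batf3 14, 24 and 18 against 393, 231 and 365 (4.07, adjusted p = 3.88e-06). Fbxw7, part of a ubiquitin ligase, rose by 0.80. The 3 lower genes were Trib1 (-1.68) and Trib2 (-0.97), pseudokinases that lead C/EBPα to degradation, and Cop1 (-0.54), the ligase they recruit. Trib3 rose instead, from 24, 26 and 19 in WT to 123, 77 and 209 in KI (log2 2.41, adjusted p = 0.000213). In KI_Chd7del against KI, 2 of the 11 were higher and 6 lower (median -0.31 against -0.01 over all genes), or 1 and 3 without KI library 3. Trib2 had the larger rise, from 305, 315 and 256 in KI to 1295, 744 and 815 in KI_Chd7del (1.66, adjusted p = 0.000350). Its KI_Chd7del values were above the 504 to 625 of WT. Atf3 (-3.05), Batf3 (-2.81) and Trib3 (-1.20) fell.

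Gfi1b, the paralogue of Gfi1 in erythroid and megakaryocyte cells, rose slightly in KI (0.52, adjusted p = 0.0189), opposite to Gfi1, and differed from KI in KI_Chd7del by 0.05 (adjusted p = 0.823). Of the 11 genes of that list, Gfi1b among them, 4 were higher and 3 lower in KI (median 0.13), or 6 and 1 when scaled to the column total, and 3 higher and 1 lower in KI_Chd7del against KI (median 0.06). Calls in either direction took 58.9% of all genes tested in KI and 40.4% in KI_Chd7del against KI. The counts thus do not set the list apart. Ehmt2, a histone H3 lysine methyltransferase, rose in KI by 0.43 and the deacetylase genes Hdac2 and Hdac3 fell (-0.40 and -0.35). In KI_Chd7del against KI, Hdac2 rose by 0.33 and Rcor2, a corepressor of the LSD1 complex, by 0.96, the latter from 70 to 96 in KI to 138 to 196.

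Of 15 factors that act on C/EBP genes or beside them, 8 were higher and 5 lower in KI (median 0.33). Zeb2 (2.13), Klf4 (2.56), a monocyte factor, and Gata2 (3.91), a factor of stem and mast cells, rose most. The 5 lower genes were Runx3 (-0.92), Spi1 (-0.84), Ikzf1 (-0.77), Klf5 (-0.67) and Myb (-0.61). Runx1, whose product is the partner of CBFB and a regulator of myeloid genes, rose from 3036, 2841 and 2929 to 6342, 5794 and 7589 (1.15, SE 0.09, adjusted p = 6.04e-06). In KI_Chd7del against KI 4 of the 15 were higher and 5 lower (median -0.01), or 2 and 4 without KI library 1 or KI_Chd7del library 3. There Myb, a progenitor factor, rose by 0.91, and Zeb2 (-1.02), Klf4 (-0.88), Runx1 (-0.53) and Stat3 (-0.38), which carries the G-CSF signal, fell.

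The genes listed here as targets of C/EBPε, those of secondary and tertiary granules and the receptor gene Ltb4r1, moved with Cebpe. With the deposited scaling, all 8 fell in KI (median log2 -3.12). In KI_Chd7del 7 of the 8 were higher than in KI (median 1.78), the remaining one being Chil3 (-0.33, adjusted p = 0.272). With quantile normalisation 7 were lower and 1 higher in KI (median -2.40), and 7 higher and 1 lower in KI_Chd7del against KI (median 1.69). Camp, a granule peptide gene, read 346932, 393780 and 383664 for WT, 23617, 43661 and 9700 for KI and 121993, 81061 and 84546 for KI_Chd7del (log2 -4.12 and 2.13 in the first 2 comparisons). Ngp, another granule protein, moved by -4.00 and 2.10, Mmp9, the gelatinase, by -3.55 and 1.83, and Ltb4r1, a leukotriene receptor, by -2.61 and 1.13; with quantile normalisation the first value of Ngp was -2.51. KI library 2 was the highest of its group in each of these 4 genes, as it was for Cebpe. Within KI_Chd7del, Camp kept the order of Cebpe, which was lowest in library 2. Ngp and Ltb4r1 were lowest in library 3, and Mmp9 was highest there (16797, 16893 and 20668).

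The receptor and primary granule genes linked to C/EBPα were mixed. Of 9, 6 were lower and 2 higher in KI (median -0.91), and 4 higher and 3 lower in KI_Chd7del against KI (median 0.35). With quantile normalisation 4 were lower and 2 higher in KI, and the median was -0.06. Elane, neutrophil elastase, fell by 2.31 in KI and rose in KI_Chd7del against KI by 0.82, and Prtn3, a related protease, moved by -1.25 and 0.72. The 2 that rose in KI were receptor genes. Csf1r, the receptor of the monocyte growth factor M-CSF, went from 3843, 4359 and 4758 with WT to 31256, 23566 and 28645 with KI (log2 2.68, adjusted p = 5.38e-07) and to 11177, 14434 and 12602 in KI_Chd7del. Il6ra, an IL-6 receptor subunit, rose by 1.54 and was lower in KI_Chd7del than in KI (-0.50). Csf3r, the G-CSF receptor of granulocytes, fell by 0.91 in KI (adjusted p = 0.00229).

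Genes that GFI1 is known to repress did not move as 1 group. Of 12, 7 were higher and 1 lower in KI, where Gfi1 was low (median 0.58 against 0.02 over all genes). These counts were 5 and 1 without WT library 2, KI library 1 or KI library 3. The set includes Gfi1b, given above. Cdkn1a, a cell cycle inhibitor, rose by 2.28, Egr2, a macrophage factor, by 2.14, Irf8, a monocyte factor, by 0.98 and Bax, a death gene, by 0.64. Egr2 was low, at 14, 28 and 31 in WT and 92, 72 and 173 in KI. Id2, an inhibitor of helix-loop-helix factors, fell by 1.62. In KI_Chd7del, where Gfi1 was higher than in KI, 6 of the 12 were higher and 4 lower than in KI (median 0.31). Without KI library 3 or KI_Chd7del library 2, 4 were higher and 4 lower. Cdkn1a (-1.59), Egr2 (-1.96) and Bax (-0.55) fell, whereas Id2 (0.80) and Irf8 (0.56) rose. Irf8 had 12341, 11208 and 11292 in KI_Chd7del against 3403 to 4966 in WT.

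**Figure D5:**
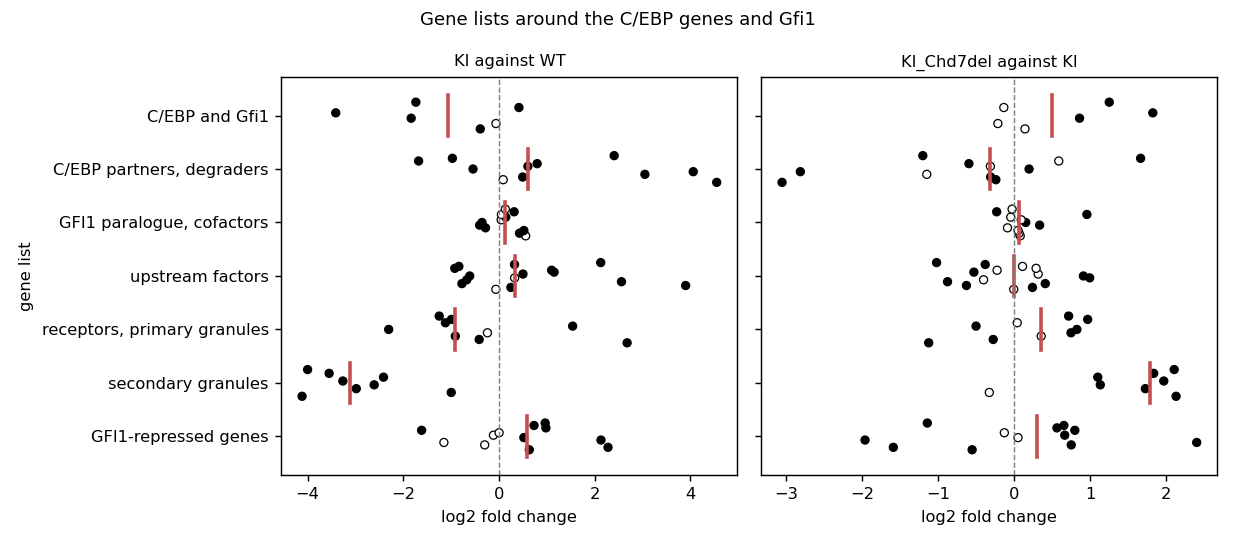
Log2 fold changes (horizontal axes) of each gene of 7 lists in KI against WT and in KI_Chd7del against KI, filled where the adjusted p was under 0.05, with a red line at the median of each list. The secondary granule list, which includes the receptor gene Ltb4r1, has medians of -3.12 and 1.78, and the GFI1-repressed genes spread to both sides.

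Across the 9 libraries, the genes most like each of the 6 were named by Pearson correlation of log2 values among 11338 genes, as a description that rests largely on the 3 group means. Cebpe was closest to Agap1 (r = 0.998), S100a8 (0.997), a protein abundant in neutrophils, and Ngp (0.997), and 546 genes exceeded 0.95. Gfi1 was closest to Adgrg3 (0.993), an adhesion receptor of granulocytes, Homez (0.992) and Marcksl1 (0.991). Cebpd was closest to Dcun1d5, Rp9 and Riox1 (0.996, 0.994 and 0.992) and Cebpg to Slc7a7, Kif1bp and Mns1 (0.992, 0.985 and 0.985). For Cebpa these were Aamp, Mrpl46 and Dap3 (0.987, 0.979 and 0.969), with 27 genes above 0.95. Cebpb had 1 gene above 0.95, Efcab14 (0.9501), followed by Cbx8 (0.939) and Rsph3a (0.933). Among the 6 themselves, Cebpe correlated with Cebpd (0.97) and Gfi1 (0.96), and with Cebpg at -0.90.

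In 3 of the 6 loci a gene of the table overlaps in part on the opposite strand. The sources used here do not say whether strand was used in counting, so reads from the shared stretch cannot be told apart. A430072P03Rik, a noncoding transcript across the start of Gfi1, read 81, 74 and 80 for WT, 23, 42 and 17 for KI and 72, 59 and 71 for KI_Chd7del, the same pattern as Gfi1 at a far lower level (log2 -1.58 and 1.36 in the first 2 comparisons). Spidr, whose 3′ end overlaps that of Cebpd, fell by 0.46 in KI, less than Cebpd. Tmem189 overlaps Cebpb and had 1195 to 1559 normalised reads, above Cebpb in each library, so the level of Cebpb is uncertain. The annotation also has antisense genes at Cebpa (Gm45091) and Cebpg (Gm45095), which were not analysed here.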

How the data were processed

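RNA-seq of c-KIT+ marrow cells was deposited as a table with a column for each library (9 libraries, 3 groups of 3). Its whole numbers are of the unit score: the values look like gene read numbers that the authors divided by a library factor and rounded, because certain low values are skipped or over-filled at regular steps. No label states this step. The submitters' processing notes name the build GRCm38 and the tools STAR 2.4, RSEM, DESeq2 and CASAVA 1.8.2; their roles are not given in the sources used here.

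The values are normalised, so the count test named as the fallback in the design did not apply. A limma 3.58.1 model with trended variance was fitted to log2(value + 1) over all 9 libraries, without a block, for genes with at least 10 in at least 3 libraries. Fold changes are on that scale, which understates changes of low genes. Tests are 2-sided, adjusted by Benjamini-Hochberg at 0.05 over all genes tested. The fit was tested on simulated data. Ratios used an exact permutation test. Within groups, the median squared difference of 2 libraries was 3.57 to 12.6 times counting noise, so no library was a copy of another.

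Symbols, positions and exon lengths came from GENCODE M21, with symbols for 42462 of 43629 identifiers. Promoters came from RefSeq. The 6 genes and the 13 lists beside them were chosen with earlier results of these data known. All 6 genes are named; of each list, up to 4 genes with the smallest adjusted p in KI against WT and up to 3 in KI_Chd7del against KI, with members that go against the list. The likeness search took named genes with a mean of at least 50. Trib1, Trib3, Csf3r, Gfi1b, Chil3, Runx3, Spi1, Ikzf1 and Klf5 were named for their role or direction after their values were seen. Alternatives were 2 other filters, 2 pseudocounts, 4 scalings, limma-voom, limma without the trend, fits of 2 groups, a replicate block and each library left out. Software was R 4.3.3, the data.table package (1.17.8), Python 3.11.15, numpy 2.4.6, pandas 2.3.3 and matplotlib 3.10.9.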

Additional observations from a re-analysis of the deposited data

How the results depend on the processing

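Each of the 18 differences of the 6 genes was refitted under 21 alternatives. The calls of Cebpd, Cebpe and Cebpg, and of Gfi1 in the comparisons with KI, were kept under all of them. The call of Cebpa in KI against WT was lost only when scaled to the column total (-0.16). Its call in KI_Chd7del against WT was lost with this scaling, with upper-quartile factors (adjusted p = 0.0918), with quantile normalisation (0.0921) and without WT library 1 (0.0742) or KI_Chd7del library 1 or 3 (0.0572 and 0.0573). Cebpa passed in KI_Chd7del against KI with upper-quartile factors (0.22, adjusted p = 0.0451) and quantile normalisation (0.23, 0.0456). Cebpb in KI against WT became 0.17 under scaling by column totals (adjusted p = 0.525). The number of the 6 genes lower in KI_Chd7del against KI was 0 to 1 with a library left out, 1 being Cebpb without KI_Chd7del library 1. The ratio of Cebpb to Cebpa in KI_Chd7del against WT (-0.03) ran from -0.33 to 0.19 with a library left out. Rcor2 in KI against WT (0.05) turned to -0.20 with quantile normalisation, and with a library left out it ran from -0.072 (without KI library 2) to 0.16. For the genes named from the lists by their adjusted p, 2483 of 2561 refits kept direction and call.

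The share of higher genes among all calls moved with the scaling: 53.9% in KI against WT became 74.2% when scaled to the column total, 49.7% in KI_Chd7del against WT became 78.7%, and 43.4% in KI_Chd7del against KI became 57.4% with upper-quartile factors. With no filter, 38.1%, 23.8% and 29.4% of 25851 genes were called. Same-numbered libraries of different groups deviated together with r from -0.15 to 0.11, and differently numbered ones with r from -0.17 to 0.21. Same-numbered libraries were thus no more alike, and whether they share a batch is not known. With the replicate block, 9121, 5952 and 7411 genes were called (9429, 6464 and 7735 without it). Cebpe was then at -3.41 in KI against WT, with no call of the 6 genes changed. The ratio tests cannot pass 0.05 with 3 against 3. Cebpb is limited by the spread of its KI_Chd7del libraries (SD 75.6, against 22.7 in WT and 11.0 in KI). It also has the lowest counts of the 6 genes.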
